A study of Mus musculus with 12 samples.

Results

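The 10 genes described here, Fos, Fosb, Jun, Junb, Jund, Egr1, Atf3, Ier2, Zfp36 and Plk2, are immediate early genes and subunits of the transcription factor AP-1. They were taken by their mouse gene symbols from a table of RNA-seq counts for 55414 genes, in which each symbol matched 1 row and all 10 rows were among the 13057 genes with enough counts to be tested. The libraries came from young adult C57BL/6J mice and fall into 4 groups of 3: a sorted Paneth cell fraction and a sorted non-Paneth fraction of small intestinal crypts, each from wild-type mice (WT) and from mice in which the glucocorticoid receptor gene Nr3c1 was deleted by a villin-driven Cre (GRKO). The villin promoter is active throughout the intestinal epithelium, so the deletion concerns both fractions, and the labels do not give the alleles that the WT mice carry. No treatment was given in the labels. Paneth cells had been sorted as CD24 and cKIT positive cells of medium to high side scatter that lacked the endothelial, leukocyte and erythroid surface markers CD31, CD45 and TER119. The crypts of all groups were first brought into single cell suspension.

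Immediate early genes are transcribed within minutes of a stimulus from factors that are already present in the cell, so no new protein is needed for their induction. In the classical route, growth factor or stress signals reach serum response factor and its ternary complex partners, or CREB, at the promoter, and the short-lived transcripts decay again soon after. Fos and Jun proteins pair through leucine zippers to form AP-1, which binds to the promoters of proliferation, stress and inflammatory genes. The activated glucocorticoid receptor is known both to bind to AP-1 and to induce genes that limit kinase signalling, such as the phosphatase gene Dusp1. Opening a tissue into single cells is itself known to induce this gene group.

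Promoter stretches of 4 members are shown because they carry the 2 motifs for which these genes are best known, the CArG box bound by serum response factor and the cyclic AMP response element bound by CREB and ATF proteins. They are read from the GRCm39 mouse genome, 5′ to 3′ along the strand of the gene, with the motif in capitals. The Fos stretch lies on the plus strand at chr12:85520320-85520399 and the Fosb stretch on the minus strand at chr7:19044198-19044277, each with a CArG box. The Jund stretch lies on the plus strand at chr8:71151350-71151427 and the Ier2 stretch on the minus strand at chr8:85389484-85389561, each with a cyclic AMP response element.
Fos: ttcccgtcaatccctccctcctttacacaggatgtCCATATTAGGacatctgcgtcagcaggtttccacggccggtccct
Fosb: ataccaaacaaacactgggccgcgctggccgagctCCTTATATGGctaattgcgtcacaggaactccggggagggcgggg
Jund: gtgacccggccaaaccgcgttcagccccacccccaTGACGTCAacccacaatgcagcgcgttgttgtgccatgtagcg
Ier2: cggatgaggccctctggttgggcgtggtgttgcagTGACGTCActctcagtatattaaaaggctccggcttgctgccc

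The CArG box begins 303 bases before the annotated start of Fos and 266 bases before that of Fosb, and the element TGACGTCA begins 214 bases before the start of Jund and 43 bases before that of Ier2. Among 21770 promoters of 500 bases, searched on both strands, a CArG box was found in 2.76% and TGACGTCA in 1.96%. The AP-1 motif TGANTCA was found in 12.3% of promoters, and among the members in Fos and Plk2. The TATA motif TATAAA was found in 24.3%, and among the members in Fos and Junb, 27 and 30 bases before the start. A NF-kB motif occurred in 2.62% of promoters and in 0 of the 10 members. The window was widened to 500 bases after a first search of 250 bases, in which 1.4% of promoters and 0 members held a CArG box. No match says only that these letters are not in the window searched.

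Most of the members are compact genes. On chromosome 8 the annotation places Junb from base 85701113 to 85705359, Jund from 71151599 to 71153265 and Ier2 from 85387960 to 85389483, and with Jun (chromosome 4, 94937271 to 94940459) these are genes of a single exon. Fos (chromosome 12, 85520658 to 85524047) and Fosb (chromosome 7, 19036621 to 19043976) have 4 exons in their canonical transcripts. Zfp36 (chromosome 7, 28076209 to 28079710) and Egr1 (chromosome 18) have 2 exons, Atf3 (chromosome 1, 190902493 to 190950241) has 4 and Plk2 (chromosome 13, 110531015 to 110537379) has 14. Counts were taken over exons. Genes on the opposite strand overlap the exons of Jun, Junb, Jund and Zfp36, and the strand used in counting is not stated. The overlapping genes of Jun, Jund and Zfp36 had between 0 and 16 counts in any library, while Prdx2, which overlaps Junb by 173 bases, had 1839 to 4732.

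Library totals ran from 11126297 to 15910292 counts. Levels are given as CPM (counts scaled to a common library size) after TMM normalisation, the scale of the fitted differences, and each group holds 3 libraries. Nr3c1 had 40.9 to 54.1 CPM in WT Paneth cells and 5.82 to 15.4 CPM in GRKO Paneth cells, and 110 to 131 CPM in WT against 13.1 to 24.5 CPM in GRKO non-Paneth cells. It was lower in GRKO in both fractions (log2 fold change −2.31, SE 0.319, edgeR adjusted p = 0.0331 in Paneth cells, and −2.67, SE 0.298, edgeR adjusted p = 6.66e-05 in non-Paneth cells). Summed Paneth markers lay at 199000 CPM or above in every Paneth library and at 686 CPM or below in every non-Paneth library. Pairs of libraries within a group differed by more than counting noise. The libraries of WT replicate 1 stood apart from the other WT libraries in the members described here, and the WT Paneth library of replicate 2 had a sum of enterocyte markers of 1590 CPM compared with 205 to 305 CPM in the other Paneth libraries, so counts are also given without single libraries.

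**Figure D1:**
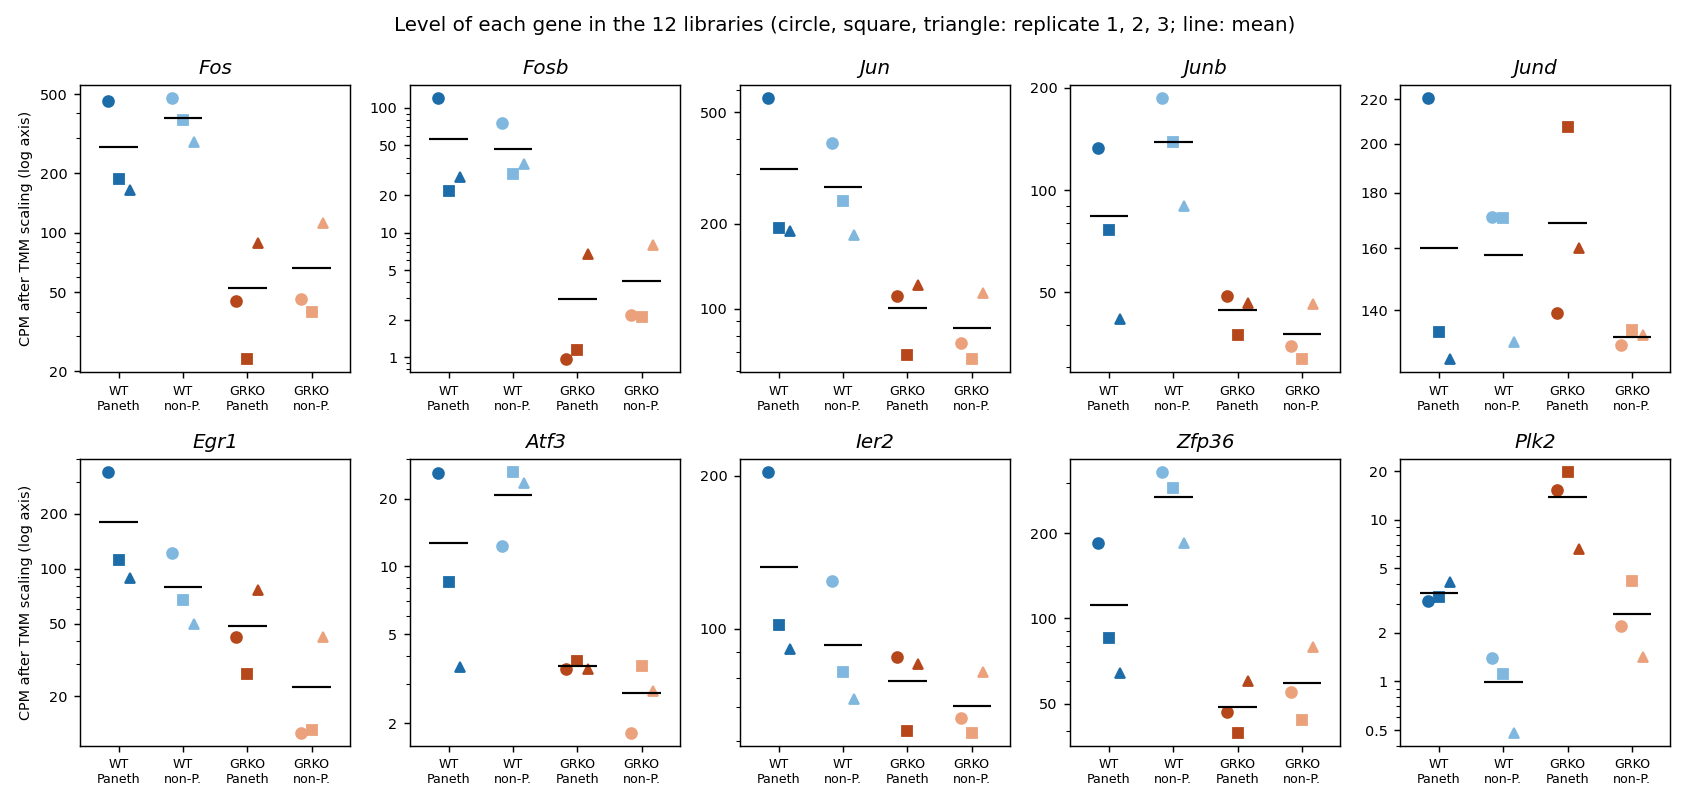
CPM after TMM scaling (log axis, a scale per gene) of the 10 genes in 12 libraries, with circles, squares and triangles for replicates 1, 2 and 3 and a line at the mean of each group. Fos lies at 164 CPM or above in all 6 WT libraries and at 112 CPM or below in all 6 GRKO libraries, whereas Jund overlaps between genotypes and Plk2 is highest in GRKO Paneth cells.

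Divided by exonic length, Fos had the highest mean level of the 10 genes in both WT fractions, and Jund in both GRKO fractions. In WT non-Paneth cells Fos reached 160 ± 40.9 CPM per kb (SD, n = 3) and did not overlap with Jund, the next in order at 94.5 ± 13.9 CPM per kb. Jun, Zfp36, Ier2 and Junb followed, each overlapping with its neighbour in the order, and then Egr1 at 17.7 ± 8.44, Atf3 at 8.5 ± 3.06 and Fosb at 7.51 ± 4.07 CPM per kb. Plk2 was the lowest at 0.195 ± 0.0917 CPM per kb. In WT Paneth cells, Fos at 115 ± 69.9 CPM per kb, Jun, Jund and Ier2 each overlapped with the next in order, and so did every other neighbouring pair except Atf3 and Plk2.

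In GRKO non-Paneth cells Jund stood at 79.4 ± 1.28 CPM per kb, above Ier2 at 46.2 ± 6.83 without overlap, and Fos was at 28.1 ± 17. In GRKO Paneth cells Jund stood at 101 ± 20.8, Ier2 at 51.6 ± 8.99 and Jun at 31.4 ± 8.72 CPM per kb, and these 3 did not overlap. Fosb was the lowest in GRKO Paneth cells, at 0.472 ± 0.524 CPM per kb, and Plk2 was eighth of 10 there at 2.73 ± 1.31. Without the division by length, Jun and not Fos had the highest mean in WT Paneth cells.

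The first genotype comparison asks how the members differ between GRKO and WT non-Paneth cells. In this fraction 6 of the 10 members fell (Fos, Fosb, Jun, Junb, Atf3 and Zfp36), against 19.8% of all genes tested, and Plk2 rose, against 17.5%. The median log2 fold change of the members was −1.85, and that of all genes tested was 0.02. In 7 members every GRKO library was below every WT library, which held for 27.5% of all genes.

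Among the Fos family, Fos encodes the founding partner of Jun in AP-1. It had 478, 369 and 285 CPM in WT replicates 1 to 3 and 46.6, 39.7 and 112 CPM in the GRKO replicates. The groups did not overlap, and the GRKO level was 5.7-fold lower (log2 fold change −2.51, SE 0.644, edgeR adjusted p = 0.0151). Fosb, whose product can replace Fos in the dimer, had 76, 29.4 and 35.3 CPM in WT and 2.19, 2.1 and 7.93 CPM in GRKO. It showed the most negative estimate of the 10 genes, 11.4-fold lower in GRKO (log2 fold change −3.52, SE 0.948, edgeR adjusted p = 0.0195). In both genes the third GRKO library was the highest of its group.

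Of the Jun family, Jun had 388, 241 and 183 CPM in WT and 75.6, 66.2 and 113 CPM in GRKO (log2 fold change −1.67, SE 0.492, edgeR adjusted p = 0.0261). Junb, a Jun relative that is a weaker activator, had 187, 138 and 89.5 CPM in WT and 34.7, 31.8 and 46 CPM in GRKO (log2 fold change −1.88, SE 0.4, edgeR adjusted p = 0.00517). Neither gene overlapped between genotypes. Jund, the constitutively expressed member of the family, had 171, 171 and 131 CPM in WT and 130, 134 and 133 CPM in GRKO. Its groups overlapped and the difference did not pass the test (log2 fold change −0.25, 95% interval −0.71 to 0.21, edgeR adjusted p = 0.341).

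As a share of the summed Jun family, per kb of exon, Jund made up 33.9% to 45.3% in WT and 59.2% to 70.3% in GRKO non-Paneth libraries. The same share was 36.3% to 49.7% in WT and 60.2% to 76.9% in GRKO Paneth libraries. The shares of the genotypes did not overlap in either fraction, and they restate the levels of the 3 genes in another form.

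Atf3, a stress-induced partner of AP-1 proteins and often a repressor, had 12.3, 26.4 and 23.5 CPM in WT and 1.82, 3.61 and 2.8 CPM in GRKO, a 7.52-fold lower level (log2 fold change −2.91, SE 0.619, edgeR adjusted p = 0.00538). Zfp36 encodes tristetraprolin, which binds AU-rich elements and speeds the decay of immediate early and cytokine transcripts. It had 329, 289 and 185 CPM in WT and 55.1, 43.8 and 79 CPM in GRKO (log2 fold change −2.17, SE 0.411, edgeR adjusted p = 0.00286). Both genes were without overlap between genotypes.

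Egr1, a zinc finger factor that is a classical target of serum response factor, had 122, 67.1 and 49.7 CPM in WT and 12.6, 13 and 42 CPM in GRKO. The groups did not overlap, but the third GRKO library lay close to the lowest WT library, and the difference missed the threshold (log2 fold change −1.82, SE 0.734, edgeR adjusted p = 0.085). Ier2, a small nuclear protein gene, had 124, 82.2 and 72.6 CPM in WT and 66.8, 62.4 and 82.2 CPM in GRKO, with overlap and no call (log2 fold change −0.4, 95% interval −1.09 to 0.29, edgeR adjusted p = 0.325). Ier2 and Jund are the 2 members with the element TGACGTCA shown above, and the 2 with the smallest differences in this comparison, which is a description of 10 genes.

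Plk2, a polo-like kinase gene, moved the other way. It was low throughout, with 1.4, 1.11 and 0.481 CPM in WT (22, 19 and 9 counts) and 2.19, 4.2 and 1.42 CPM in GRKO (47, 100 and 33 counts). The groups did not overlap by a narrow margin and the GRKO level was 2.64-fold higher (log2 fold change 1.4, SE 0.506, edgeR adjusted p = 0.0438). This call was lost in 8 of 18 alternative analyses, over which the edgeR or DESeq2 adjusted p ran from 5.23e-05 to 0.239, and these 8 include each analysis that left out 1 WT library or GRKO replicate 1 or 2.

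The calls for Junb, Atf3 and Zfp36 held in all 18 alternative analyses of this comparison, that for Fos in 16, for Fosb in 15 and for Jun in 12. Leaving out single libraries moved the number of members called from 7 to between 3 and 8, with 3 (Junb, Atf3 and Zfp36) without GRKO replicate 1 or without GRKO replicate 2 and 4 without WT replicate 1.

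**Figure D2:**
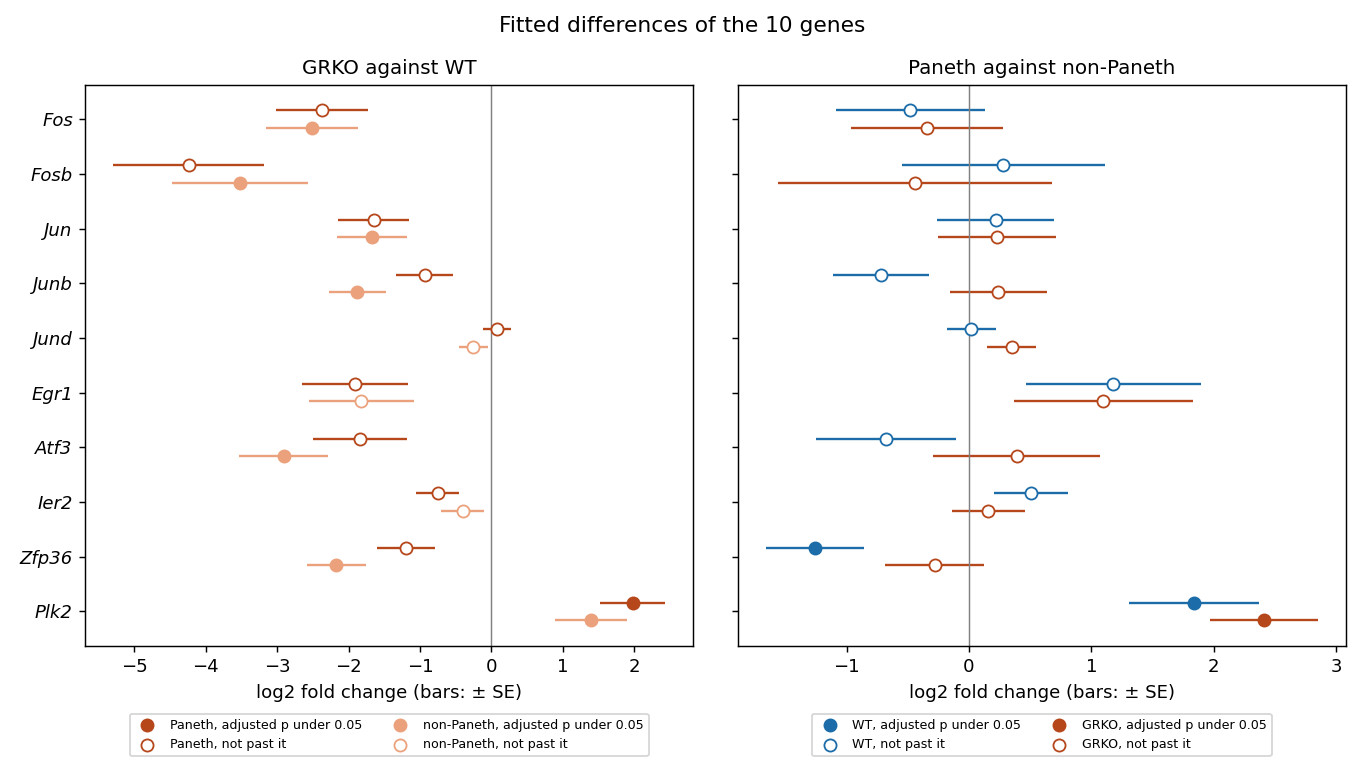
Fitted log2 fold changes of the 10 genes with their standard errors, GRKO against WT on the left and Paneth against non-Paneth on the right, with filled points where the adjusted p was under 0.05. In the left panel 8 genes lie below 0 in both fractions, and 6 of them are filled in non-Paneth cells and 0 in Paneth cells. Plk2 is filled in all 4 comparisons.

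In bulk samples, fewer cells of a type and less RNA per cell cannot be told apart, and the makeup of the non-Paneth fraction differed between genotypes by its markers. Of 6 enterocyte markers, 2 fell and 0 rose in GRKO, and their summed level was 19800 to 22300 CPM in WT and 3660 to 4720 CPM in GRKO. All 4 tuft cell markers rose, from a sum of 3.12 to 8.78 CPM in WT to 62.8 to 247 CPM in GRKO, and all 4 proliferation markers rose, from 570 to 642 CPM to 971 to 1040 CPM. Of 4 stem cell markers, 3 rose, with sums of 3340 to 4550 CPM in WT and 4320 to 5650 CPM in GRKO. Of 5 goblet cell markers 2 fell, of 4 enteroendocrine markers 1 rose, and of 4 tested leukocyte markers 1 fell. In this fraction 17.5% of all genes tested rose and 19.8% fell. Of 5 Paneth cell markers 1 rose, the antimicrobial peptide gene Ang4, from 16.4, 38.2 and 36.1 CPM in WT to 172, 228 and 63 CPM in GRKO (log2 fold change 2.35, SE 0.499, edgeR adjusted p = 0.00355). In Paneth cells 0 genes of these marker lists were called between genotypes. The part of these shifts in the member differences was not tested. Markers of mesenchyme and endothelium summed to below 1 CPM in every library, and erythroid markers reached at most 0.176 CPM.

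The same question was asked of Paneth cells, in which 8 members had a negative estimate and 0 of these passed the threshold, against 1.52% of all genes tested called lower. Plk2 rose, against 1.7% called higher. The median log2 fold change of the members was −1.42 and that of all genes 0.03. In 6 members every GRKO library was below every WT library, which held for 10.2% of all genes, and 9 of the 10 members had an unadjusted p under 0.05, as did 26.7% of all genes.

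Fos had 461, 188 and 164 CPM in WT and 45.1, 23.1 and 89 CPM in GRKO Paneth cells (log2 fold change −2.37, SE 0.647, edgeR adjusted p = 0.0721). Fosb had 120, 21.5 and 27.9 CPM in WT and 0.967, 1.15 and 6.72 CPM in GRKO, the latter from 8, 13 and 71 counts (log2 fold change −4.24, SE 1.06, edgeR adjusted p = 0.0595). Jun had 561, 194 and 188 CPM in WT and 111, 68.4 and 121 CPM in GRKO (log2 fold change −1.65, SE 0.494, edgeR adjusted p = 0.0834). In all 3 genes the first WT library was more than double either of the others, and the genotypes did not overlap. The estimates for Fos and Jun lay close to those in non-Paneth cells.

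Egr1 had 341, 112 and 88.8 CPM in WT and 42.3, 26.5 and 76 CPM in GRKO (log2 fold change −1.91, edgeR adjusted p = 0.147). Ier2 had 204, 101 and 91 CPM in WT and 88, 63 and 85.1 CPM in GRKO (log2 fold change −0.75, edgeR adjusted p = 0.149). Zfp36 had 184, 85.2 and 64.4 CPM in WT and 46.8, 39.5 and 59.9 CPM in GRKO (log2 fold change −1.19, edgeR adjusted p = 0.108). These 3 genes were also without overlap, but the gap between the highest GRKO and the lowest WT library was narrow in each.

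Junb and Atf3 overlapped between genotypes through the third WT library. Junb had 133, 76.1 and 41.8 CPM in WT and 48.7, 37.5 and 46.5 CPM in GRKO (log2 fold change −0.93, edgeR adjusted p = 0.175). Atf3 had 26, 8.54 and 3.55 CPM in WT and 3.51, 3.79 and 3.5 CPM in GRKO (log2 fold change −1.84, edgeR adjusted p = 0.119). In Atf3 the WT libraries spread widely while the GRKO libraries were nearly equal. Jund had 221, 134 and 126 CPM in WT and 139, 207 and 160 CPM in GRKO, with an interval for the log2 fold change from −0.38 to 0.54 (edgeR adjusted p = 0.837).

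Plk2 had 3.14, 3.34 and 4.14 CPM in WT Paneth cells and 15.4, 19.8 and 6.63 CPM in GRKO Paneth cells, from 27 to 35 and 70 to 225 counts. It was higher in every GRKO library (3.94-fold, log2 fold change 1.98, SE 0.458, edgeR adjusted p = 0.0448), and the call held in 10 of 18 alternatives, with adjusted p from 3.92e-10 to 0.224. The sums of tuft cell markers and of leukocyte markers were correlated with it over the 12 libraries. Among the WT Paneth libraries the leukocyte sum ran in the reverse order to Plk2. The summed level of tuft markers was 815, 1080 and 404 CPM in the GRKO Paneth libraries and 159, 314 and 436 CPM in the WT Paneth libraries, and none of the 4 markers passed the test there. Over the 12 libraries, log2 Plk2 and the log2 sum of tuft markers had a Pearson r of 0.872, across libraries that share their sort and genotype, and 0.537 after the group means were taken out. The summed leukocyte markers were at 37.1, 37.9 and 12.3 CPM in the GRKO Paneth libraries and at 20.3, 19.1 and 18.3 CPM in the WT Paneth libraries, with an r of 0.869 to Plk2 over the 12 libraries and 0.769 after the group means were taken out. Of their 4 tested markers 0 passed there, and Ptprc, which encodes the CD45 that the sort excluded, had a log2 fold change of 2.35 (SE 1.18, edgeR adjusted p = 0.239). The part of either cell type in the Plk2 difference was not tested.

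The number of Paneth cell calls depended on the analysis. DESeq2 called 5 members lower (Fos, Fosb, Jun, Junb and Atf3), against 5.27% of the genes it tested, and Plk2 higher. Without a filter on low counts 8 members were called lower, against 3.09% of genes. Without WT replicate 1, without WT replicate 2 or without GRKO replicate 2, 0 members were called, and without WT replicate 3 Junb and Atf3 were called lower and Plk2 was not. In all 18 alternatives the 8 negative estimates kept their sign.

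Whether the genotype difference itself differed between the fractions was tested as an interaction. By edgeR 0 of the 10 members passed, against 18.7% of all genes, and 0 had an unadjusted p under 0.05, which 33.3% of all genes had. DESeq2 also called 0. The estimates furthest from 0 were those of Atf3 (1.07, SE 0.892), Zfp36 (0.98, SE 0.566) and Junb (0.95, SE 0.556), in which the GRKO level was less far below WT in Paneth than in non-Paneth cells. The 95% intervals were wide, from −1.87 to 2.15 for Fos and from −0.32 to 2.28 for Zfp36, so this fit does not show that the calls in non-Paneth cells and their absence in Paneth cells differ. With the replicate number as a block, 2 of the 10 members passed, against 2977 of all 13057 genes. These were Junb (1.05, SE 0.201, edgeR adjusted p = 0.00136) and Zfp36 (1.11, SE 0.219, edgeR adjusted p = 0.00177), in a fit that also blocks the GRKO libraries, whose numbers were not taken as pairs. The interaction uses the same libraries as the other comparisons.

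The comparison of the fractions asks which members differ between WT Paneth and WT non-Paneth cells. With libraries taken as independent, 2 members passed, against 50.7% of all genes. Plk2 was 3.58-fold higher in Paneth cells (log2 fold change 1.84, SE 0.53, edgeR adjusted p = 0.0106). Zfp36 was 2.4-fold lower (log2 fold change −1.26, SE 0.401, edgeR adjusted p = 0.025). The labels do not say which libraries share a mouse. Within WT, Paneth and non-Paneth libraries of the same replicate number deviated together across genes, with an r of 0.349, 0.229 and 0.238. The WT numbers were therefore taken as pairs, and the fit with the replicate number as a block is given beside the first.

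In that blocked fit 6 members passed, against 53.2% of all genes. The fit takes its spread from all 12 libraries and also blocks those of GRKO, whose numbers were not taken as pairs. The WT pairs were themselves inferred from these libraries. Egr1 rose in Paneth cells in 3 of 3 pairs, by 2.78, 1.67 and 1.79-fold (log2 fold change 1.02, SE 0.174, edgeR adjusted p = 0.000124). Ier2 rose by 1.64, 1.23 and 1.25-fold (log2 fold change 0.45, SE 0.133, edgeR adjusted p = 0.00855), and Plk2 by 2.24, 3.02 and 8.61-fold (log2 fold change 1.86, SE 0.342, edgeR adjusted p = 0.000181). Egr1 and Ier2 were thus higher on the Paneth side in every pair, as Plk2 was. With the trend of fold change on GC content and length also taken out of the blocked fit, Ier2 was no longer called (0.27, edgeR adjusted p = 0.0504) and Jund was called lower (−0.63, edgeR adjusted p = 0.000428).

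On the other side, Zfp36 was lower in Paneth cells by 1.79, 3.39 and 2.88-fold in the 3 pairs (log2 fold change −1.37, SE 0.156, edgeR adjusted p = 8.3e-07). Junb was lower by 1.4, 1.82 and 2.14-fold (log2 fold change −0.81, SE 0.141, edgeR adjusted p = 0.000108), and Fos by 1.04, 1.97 and 1.73-fold (log2 fold change −0.61, SE 0.173, edgeR adjusted p = 0.00767). In Fos the pair of replicate 1 was nearly equal. Fosb, Jun, Jund and Atf3 changed direction between pairs, and Atf3 most of all, with Paneth to non-Paneth ratios of 2.12, 0.323 and 0.151.

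**Figure D3:**
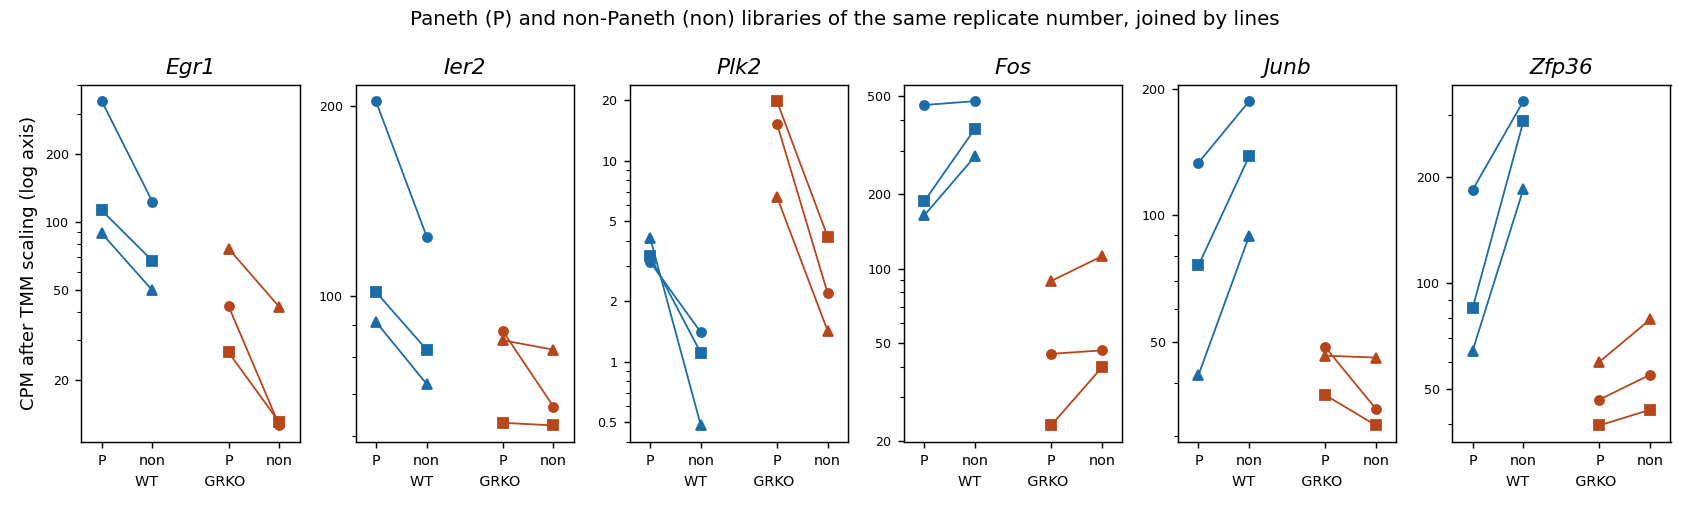
CPM after TMM scaling (log axis, a scale per gene) of 6 genes in Paneth (P) and non-Paneth (non) libraries, with lines joining libraries of the same replicate number in WT (blue) and GRKO (brown). Within WT the 3 lines run down from Paneth to non-Paneth for Egr1, Ier2 and Plk2 and up for Fos, Junb and Zfp36. In GRKO the lines join libraries by number only, since these numbers were not taken as pairs.

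In GRKO mice Plk2 was the single member that passed between the fractions, against 39.2% of all genes, at 5.33-fold higher in Paneth cells (log2 fold change 2.41, SE 0.442, edgeR adjusted p = 0.000752). Egr1 was higher in the Paneth library of all 3 numbers, by 3.36, 2.03 and 1.81-fold, though these numbers were not taken as pairs. Libraries of the groups overlapped and the difference did not pass (log2 fold change 1.1, SE 0.732, edgeR adjusted p = 0.276). Junb, lower in Paneth cells of WT mice, had Paneth to non-Paneth ratios of 1.4, 1.18 and 1.01 in GRKO. Zfp36 had ratios of 0.85, 0.902 and 0.758. Both had intervals that include 0, from −0.68 to 1.15 and from −1.21 to 0.65 on the log2 scale.

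The members also varied together among libraries of the same group. In WT Paneth cells, replicate 1 was the highest library for 9 of 10 members, compared with 34.5% of all genes, and in WT non-Paneth cells replicate 1 was again highest for 9, compared with 37.1%. The exceptions were Plk2 in Paneth and Atf3 in non-Paneth cells. In GRKO the third replicate was highest for 5 of 10 members in Paneth cells (30.7% of all genes) and for 7 of 10 in non-Paneth cells (37.4%). The summed level of the 10 members was 2250, 923 and 800 CPM in the WT Paneth libraries, 1890, 1410 and 1060 CPM in WT non-Paneth, 541, 490 and 654 CPM in GRKO Paneth and 428, 401 and 620 CPM in GRKO non-Paneth.

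After the group means were taken out, the deviations of Paneth and non-Paneth libraries of the same genotype and number were set side by side, over 3 WT sets taken as pairs and 3 GRKO sets that share only a number. Over these 6 sets the Pearson r was 0.987 for Fosb, 0.927 for Ier2, 0.919 for Junb, 0.895 for Fos, 0.885 for Jun, 0.878 for Egr1 and 0.812 for Zfp36. It was 0.538 for Jund, 0.486 for Plk2 and −0.625 for Atf3. Between genes, over 12 libraries, the deviations of Jun and Ier2 had an r of 0.986, those of Fos and Egr1 0.962 and those of Jun and Zfp36 0.944, whereas those of Fos and Plk2 had an r of −0.572. These are descriptions over libraries that share a genotype and, in WT, numbers taken as pairs.

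The third GRKO replicate, the highest of its genotype for Fos, Fosb, Jun, Egr1 and Zfp36 in both fractions, also had the highest Nr3c1 of its genotype, at 15.4 CPM in Paneth and 24.5 CPM in non-Paneth cells. In WT the reverse was seen, since replicate 1 had the lowest Nr3c1, at 40.9 CPM in Paneth and 110 CPM in non-Paneth cells. The summed tuft markers were lowest in the same libraries, WT replicate 1 and GRKO replicate 3, in both fractions. Over 12 libraries the deviations of the tuft sum had an r of −0.897 with those of Fos and −0.927 with those of Egr1. Other marker sums also varied with these genes, among them the stem sum, with an r of 0.773 to Fos and 0.768 to Egr1. The part of any cell type in this variation was not tested. With both fractions of WT number 1 left out, a choice made after the data were seen, 6 members were lower in GRKO non-Paneth cells, the same 6 as with all libraries, and Plk2 was not called. In Paneth cells 0 members were then called.

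**Figure D4:**
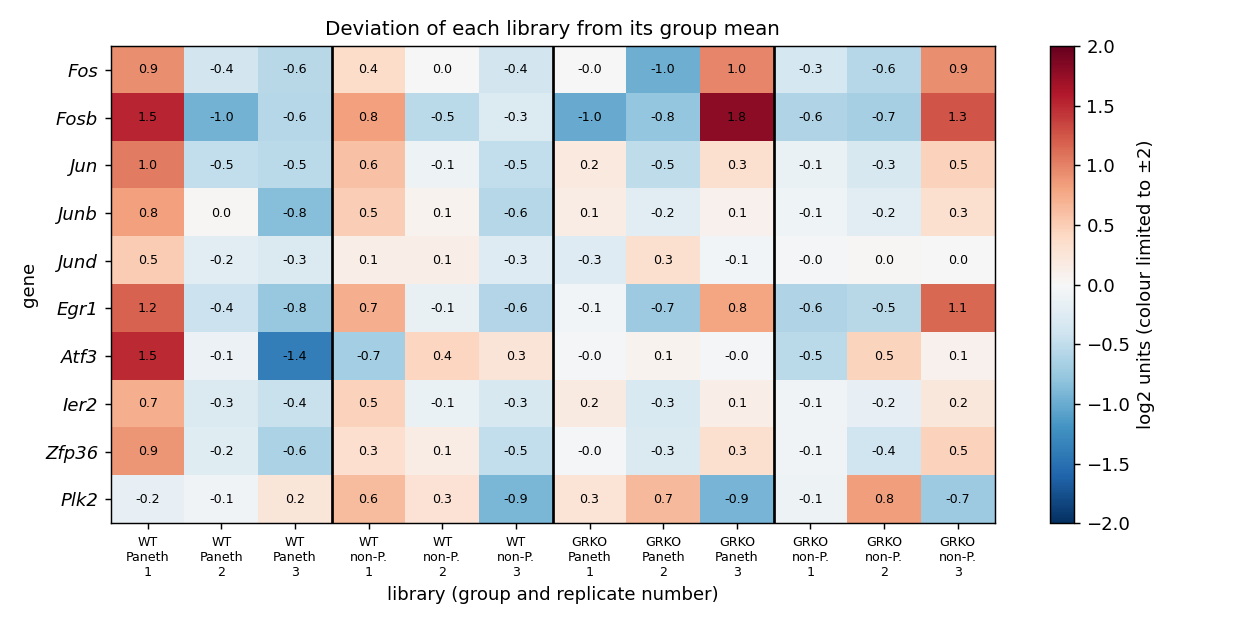
Deviation of each library from the mean of its group in log2 units, for the 10 genes (rows) in the 12 libraries (columns), with colour limited to 2 units either way. WT replicate 1 is positive for 9 genes in each fraction, GRKO replicate 3 is positive for 7 genes in Paneth and 9 in non-Paneth cells, and Plk2 is negative in the Paneth libraries of both.

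Heat shock genes, which like immediate early genes respond to the handling of tissue, were listed to stand beside these values. Of 15 genes 13 could be tested, and in Paneth cells 0 differed between GRKO and WT. In non-Paneth cells 4 rose in GRKO, against 17.5% of all genes, and 1 fell, against 19.8%. Among those that rose were Hspd1 (log2 fold change 0.82, SE 0.135, edgeR adjusted p = 0.000326) and Hsp90aa1 (log2 fold change 0.82, SE 0.198, edgeR adjusted p = 0.00492). Dnajb4 fell (log2 fold change −1.04, SE 0.232, edgeR adjusted p = 0.0029). The summed level was 3230, 3350 and 3770 CPM in WT Paneth, 3970, 3840 and 3010 CPM in GRKO Paneth, 3070, 2720 and 3530 CPM in WT non-Paneth and 4870, 4890 and 4030 CPM in GRKO non-Paneth libraries.

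The direction of the sum was thus opposite to that of the members between genotypes in non-Paneth cells. Most of that sum was Hsp90ab1, with a mean of 1510 CPM in WT and 2180 CPM in GRKO non-Paneth cells, and Hspa8, with 750 and 1060 CPM. GRKO replicate 3 had the lowest heat shock sum of its genotype in both fractions. The inducible Hspa1a did not exceed 0.909 CPM and Hspa1b did not exceed 4.36 CPM in any library. Over 12 libraries the deviations of the heat shock sum had an r of −0.757 with those of Fos and −0.717 with those of Egr1 and of Zfp36. The part of cell dissociation and sorting in the member levels was not tested, and the labels give no handling times.

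**Figure D5:**
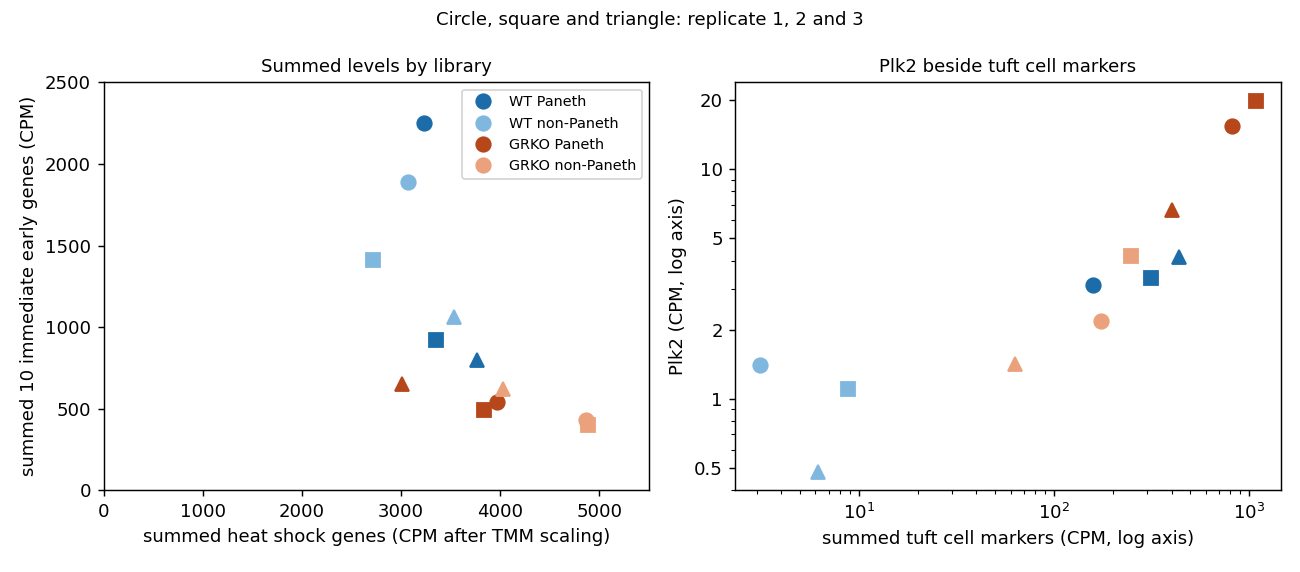
Left, the summed CPM of the 10 genes against the summed CPM of 15 heat shock genes, and right, Plk2 against the summed CPM of 4 tuft cell markers on log axes, in 12 libraries. The library with the highest sum of the 10 genes, WT Paneth replicate 1 at 2250 CPM, has a heat shock sum of 3230 CPM, and the 2 libraries with the most Plk2, GRKO Paneth replicates 1 and 2, have the highest tuft marker sums at 815 and 1080 CPM.

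Beyond the 10 members, 45 other immediate early genes were listed, of which 39 could be tested. In GRKO non-Paneth cells 21 fell, against 19.8% of all genes, and 3 rose, against 17.5%, with a median log2 fold change of −0.55. In Paneth cells 0 were called, with a median of −0.2. The largest changes in non-Paneth cells were those of 4 genes. Dusp1, a MAP kinase phosphatase gene and a glucocorticoid receptor target, had 24.6, 15.5 and 11.5 CPM in WT and 2.19, 1.72 and 4.7 CPM in GRKO (log2 fold change −2.57, SE 0.594, edgeR adjusted p = 0.00794). The ERK phosphatase gene Dusp6 (−2.43, SE 0.282, edgeR adjusted p = 6.31e-05), the small GTPase gene Rhob (−1.87, SE 0.263, edgeR adjusted p = 0.000205) and the cytokine signalling inhibitor gene Socs3 (−1.57, SE 0.439, edgeR adjusted p = 0.0173) also fell.

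Between WT fractions 9 of the 39 genes were higher and 13 lower in Paneth cells, and in GRKO 11 were higher and 6 lower. Of all genes, 50.7% differed in either direction between WT fractions and 39.2% between GRKO fractions. The orphan receptor gene Nr4a1 had 14.5, 8.54 and 10.2 CPM in WT Paneth and 1.27, 0.349 and 0.428 CPM in WT non-Paneth cells (log2 fold change 4.04, SE 0.374, edgeR adjusted p = 3.66e-07). The stress sensor gene Gadd45g had 60.4, 106 and 80.6 CPM in WT Paneth and 7.83, 11.1 and 8.07 CPM in WT non-Paneth cells (log2 fold change 3.19, SE 0.224, edgeR adjusted p = 3.8e-08). Of the 39 genes, 11 passed the interaction test, against 18.7% of all genes, and 10 of the 11 were positive. They were led by Dusp6 (2.39, SE 0.395, edgeR adjusted p = 0.00228) and Gadd45g (1.97, SE 0.31, edgeR adjusted p = 0.00116). Whether the share that passed differs from that among the members was not tested.

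Of 8 other AP-1 family genes 5 could be tested. Fosl2, a Fos relative with a longer-lived product, had 109, 160 and 129 CPM in WT non-Paneth and 84.8, 75 and 69.1 CPM in GRKO non-Paneth cells (log2 fold change −0.8, SE 0.144, edgeR adjusted p = 0.000677), while its Paneth levels were 44.4, 44.4 and 42.5 CPM in WT and 50.5, 62.6 and 49 CPM in GRKO. Its interaction term passed the test (1.1, SE 0.208, edgeR adjusted p = 0.00277). Batf2 and Jdp2 also fell in GRKO non-Paneth cells, where 19.8% of all genes fell, and 0 of the 5 were called in Paneth cells.

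All 24 genes of the upstream list, kinases and transcription factors that carry signals to immediate early promoters, could be tested. Between genotypes 2 rose and 6 fell in non-Paneth cells, where 17.5% of all genes rose and 19.8% fell. In Paneth cells 0 were called. The medians in non-Paneth and Paneth cells were 0.05 and 0.18 on the log2 scale. The largest change in non-Paneth cells was that of Elk4, a partner of serum response factor (log2 fold change −0.82, SE 0.155, edgeR adjusted p = 0.000864). Of 8 glucocorticoid receptor targets 7 could be tested. In GRKO non-Paneth cells 4 fell, against 19.8% of all genes, and in GRKO Paneth cells 1 fell, against 1.52%. That gene was Sgk1, a kinase gene of ion transport, with 9.88, 14.6 and 10.4 CPM in WT and 2.18, 4.15 and 3.6 CPM in GRKO Paneth cells (log2 fold change −1.78, SE 0.4, edgeR adjusted p = 0.0448).

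The genes most like each member were sought among 8781 genes of at least 10 CPM on average. The measure was the Pearson r of log2 CPM over the 12 libraries, which share genotype, sort and, in WT, numbers taken as pairs. Fos was most like Clk1 (0.978) and Fosb (0.97), and Fosb was most like Fos and Gm19696 (0.96). Jun was most like Dusp1 (0.981) and Akap8l (0.964), and Zfp36 was most like Rhob (0.981) and Hexd (0.975). For these members, other genes of the immediate early lists were among the closest 2.

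The other members had their closest genes outside the lists, and Atf3 and Jund had the lowest r. Junb was most like Rab24 (0.967) and Ip6k2 (0.964), Egr1 like Ift46 (0.96) and 2810013P06Rik (0.935), Ier2 like Slc7a6os (0.949) and Grb7 (0.939), and Atf3 like Vps9d1 (0.893) and Arl4a (0.892). Jund was most like Lypla2 (0.908) and Fxr2 (0.866). Plk2 was most like Esyt1 (0.99) and Inpp5j (0.968).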

How the data were processed

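Bulk RNA-seq was done on 12 libraries of sorted crypt cells in 4 groups of 3. The authors deposited a table of raw counts per Ensembl gene, made from single-end reads of stranded libraries that were mapped to mm39 with STAR 2.7.10a, which also counted them. FastQC, Trimmomatic 0.39 and DESeq2 are named in the submitters' processing notes. The strand used in counting is not stated, and counts of overlapping genes on opposite strands are uncertain where the strand was not used.

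Groups were taken from the sample titles, with which the genotype field of the labels disagrees for GRKO Paneth and WT non-Paneth samples. The Nr3c1 levels go with the titles, since every GRKO library by title lay below every WT library of its fraction. Libraries had 11126297 to 15910292 counts, and 0 columns were left unused. Genes were kept with edgeR's filterByExpr (13057 of 55414), scaled by TMM and tested with edgeR 4.0.16 (quasi-likelihood F-test, robust, 1 mean per group, all 12 libraries in 1 fit, R 4.3.3), and p-values were Benjamini-Hochberg adjusted over all genes tested, with a threshold of 0.05. Intervals are the estimate ± the 95% t quantile times SE. The p-values measure the spread between these libraries, and the labels do not say which libraries come from the same mouse. Symbols, positions, exonic lengths and promoters come from GENCODE vM39 and GRCm39, matched by gene ID, a release that may differ from the authors'. DESeq2 1.42.0 and other settings were alternatives. The steps were tested on simulated data.

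The replicate numbers were checked for pairing by correlating, across genes, the deviations of same-numbered libraries from their group means. In WT the correlations of the Paneth and non-Paneth libraries were 0.349, 0.229 and 0.238, and the numbers were taken as pairs. In GRKO they were 0.0129, 0.262 and 0.465, and across genotypes from −0.098 to 0.166, and the numbers were not taken as pairs.

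All 10 members were named. Of each other list at most 4 genes per comparison were named, those past the threshold with the largest change, and for each member the 2 most alike genes. The values of Hspa1a, Hspa1b, Hspa8 and Hsp90ab1, of the single leukocyte markers, and the level of Prdx2, were chosen after they were seen. The members and lists were chosen with earlier results of these data known.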

Additional observations from a re-analysis of the deposited data

How the results depend on the processing

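Of the single-gene values of the 10 members, 837 stayed on the same side of the threshold under the alternatives. A further 55 passed the threshold that had not, 33 no longer passed it and 5 reversed direction with a call. The 837 include estimates that changed sign without a call in either analysis. Fosb between WT fractions kept its direction in 12 of 17 alternatives, and Egr1 in the interaction in 14 of 23, with 0 calls for both. Jund in WT Paneth against WT non-Paneth cells was −0.65 with library totals, −0.62 with the GC and length trend removed and −0.63 with that trend removed and the replicate block. In GRKO Paneth against GRKO non-Paneth cells, Jund was −0.6 and Ier2 −0.83 with library totals. Scaling by library totals shifted all genes, with a median log2 change of −0.68 between WT fractions, −1.05 between GRKO fractions, 0.31 between genotypes in non-Paneth cells and −0.28 for the interaction, and the values of Jund and Ier2 under it lie within or near that shift. With that scaling, 4345 of the 5823 genes called between genotypes in non-Paneth cells were higher, compared with 2283 of 4869 with TMM.

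Between genotypes in Paneth cells, where 1 member was called, the count was 6 by DESeq2, 9 without a filter on low counts, and 0 with library totals, with only the groups compared, with the GC and length trend removed or with both fractions of WT number 1 left out. The count of all genes in this comparison was 420, with 0 to 1780 under the alternatives, 0 of them with only the groups compared or without GRKO Paneth replicate 2. Without the filter the prior degrees of freedom of the edgeR fit were infinite, so the own spread of a gene no longer entered its test, while with the filter they were 0.417 to 6.44 for the members. The cause of the other differences was not tested. Between genotypes in non-Paneth cells, alternatives other than those that leave out a library gave 6 to 8 members.

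With the replicate block, 6 members instead of 2 were called between WT fractions, 2 instead of 1 between GRKO fractions (Egr1 and Plk2) and 2 instead of 0 for the interaction (Junb and Zfp36, both positive). The block changed no other count of members. In GRKO not every library was closest to the one with its own number. With the trend removed and the block the counts were 6 (Ier2 lost at 0.27, Jund gained), 2 and 3 (Jund added to Junb and Zfp36), and with the trend alone 4 between WT fractions. Without the filter the counts were 7 between WT fractions, 2 between GRKO fractions and 3 for the interaction. With only the groups compared they were 1 and 2, library totals gave 4 between GRKO fractions, and leaving out WT number 1, added after seeing the data, gave 4 between WT fractions and 1 for the interaction (Atf3).

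Leaving out single libraries gave 1 to 4 members between WT fractions (4 without WT Paneth replicate 1), 1 between GRKO fractions, 0 to 2 between genotypes in Paneth cells, 3 to 8 in non-Paneth cells and 0 to 2 for the interaction (2, Atf3 and Zfp36, without WT Paneth replicate 1). Where an arm was left with 2 libraries, all groups shared 1 estimate of the spread. Ordering the members by CPM without division by exonic length moved 24 of 40 ranks. Low counts limit Plk2 (9 to 225 counts a library), Fosb in GRKO Paneth cells (8 to 71) and Atf3 in GRKO (29 to 86).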
